A study of Arabidopsis thaliana with 8 samples.

Results

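The CIN-class TCP genes of Arabidopsis thaliana are the 8 genes TCP2 (AT4G18390), TCP3 (AT1G53230), TCP4 (AT3G15030), TCP5 (AT5G60970), TCP10 (AT2G31070), TCP13 (AT3G02150), TCP17 (AT5G08070) and TCP24 (AT1G30210). They were taken by name, as 8 of the 27444 protein-coding genes on the 5 nuclear chromosomes, and every ChIP-seq peak of GNC or CGA1 that overlapped a window from 2 kb upstream of the gene to 1 kb downstream of it was collected. GNC and CGA1 are related GATA-type transcription factors, which recognise short DNA words built around GATA or GATC. Binding was measured in a myc-GNC line and in a myc-CGA1 line, both Col-0 plants that overexpress the myc-tagged factor, in whole rosette leaves of 3-week-old plants grown under long days. DNA precipitated with an anti-myc antibody (IP) was compared with sonicated chromatin that had not been precipitated (INPUT), in 2 replicates of each line, so that 8 libraries gave 4 peak lists. Both lines carried a tagged and overexpressed protein, and no IP from untagged or wild-type plants is among the samples used here.

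CIN-class TCP proteins are class II TCP transcription factors that end cell proliferation in the growing leaf blade and promote its differentiation. When their joint activity is lost, leaves keep dividing at the margins and become crinkled. A group of them is also held in check by the microRNA miR319, which pairs with a site in their coding sequence and directs cleavage of the mRNA. The questions here are which of the 8 genes had a GNC or a CGA1 peak, where in the gene it lay, and how that compares with genes in general. A peak marks DNA recovered with the factor and does not show that the expression of a nearby gene depends on it.

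4 stretches of DNA carry the peaks found in both replicate lists of a line, and they are shown with every GATA word (TATC on the other strand) and every GATC word in capitals. All sequences were read 5′ to 3′ from the RefSeq TAIR10.1 assembly, whose nuclear chromosomes have the same lengths as those of TAIR10, the build of the peak files. For TCP13 the first is the central part of the peak in front of the gene (chr3:389943-390242, plus strand, which is the coding strand). The second comes from the peak at the end of the gene, of which 387 bases lie past the annotated transcript. The first 300 of these are shown (chr3:392768-393067, plus strand). For TCP17 it is the central part of the peak behind the gene (chr5:2586385-2586684, plus strand, the coding strand).
TCP13 upstream: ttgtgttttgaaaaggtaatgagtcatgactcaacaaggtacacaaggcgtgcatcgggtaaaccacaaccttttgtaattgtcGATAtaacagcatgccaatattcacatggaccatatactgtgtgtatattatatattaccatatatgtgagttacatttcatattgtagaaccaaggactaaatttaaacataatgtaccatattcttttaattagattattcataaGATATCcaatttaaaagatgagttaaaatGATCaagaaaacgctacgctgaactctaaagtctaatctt
TCP13 downstream: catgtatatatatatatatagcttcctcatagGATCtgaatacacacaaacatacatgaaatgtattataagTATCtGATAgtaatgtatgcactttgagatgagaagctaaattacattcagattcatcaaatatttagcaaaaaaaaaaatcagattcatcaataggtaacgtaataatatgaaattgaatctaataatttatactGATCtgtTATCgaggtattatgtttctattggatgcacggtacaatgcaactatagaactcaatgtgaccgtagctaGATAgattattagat
TCP17 downstream: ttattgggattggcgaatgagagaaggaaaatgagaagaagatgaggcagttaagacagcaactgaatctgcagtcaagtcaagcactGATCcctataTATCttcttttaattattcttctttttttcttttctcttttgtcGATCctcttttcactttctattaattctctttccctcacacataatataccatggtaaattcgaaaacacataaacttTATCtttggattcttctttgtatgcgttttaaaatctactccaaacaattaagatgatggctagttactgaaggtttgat

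The TCP5 peak of CGA1 covered the whole first intron (chr5:24536708-24536937, minus strand, the coding strand), which lies between parts of the 5′ UTR, and then the first bases of the coding sequence, from the start codon on (chr5:24536597-24536652, minus strand). Both pieces are shown in the direction of transcription.
TCP5 intron: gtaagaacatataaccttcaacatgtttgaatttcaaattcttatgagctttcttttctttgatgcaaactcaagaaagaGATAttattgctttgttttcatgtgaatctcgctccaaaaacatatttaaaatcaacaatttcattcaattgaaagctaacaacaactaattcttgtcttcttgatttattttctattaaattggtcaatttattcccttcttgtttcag
TCP5 coding start: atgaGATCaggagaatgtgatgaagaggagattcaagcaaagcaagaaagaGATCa
The intron held 1 GATA and no GATC word, whereas the coding piece of 56 bases held 2 GATC words. The remaining 3 of the 5 GATC words in this peak lay in 5′ UTR sequence.

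Of the 8 genes, TCP13 and TCP17 had a GNC peak in both replicate lists and TCP5 had a CGA1 peak in both. TCP24 and, for GNC, TCP5 had a peak in the list of replicate 1 alone. TCP2, TCP3, TCP4 and TCP10 had no peak of either factor within the window in any of the 4 lists. In all, 7 different intervals were found, 6 of GNC and 1 of CGA1, of which 3 and 1 were in both lists of their line. Genes without a peak are common. In at least 1 list, 30.9% of protein-coding genes had a GNC peak and 15% a CGA1 peak.

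**Figure D1:**
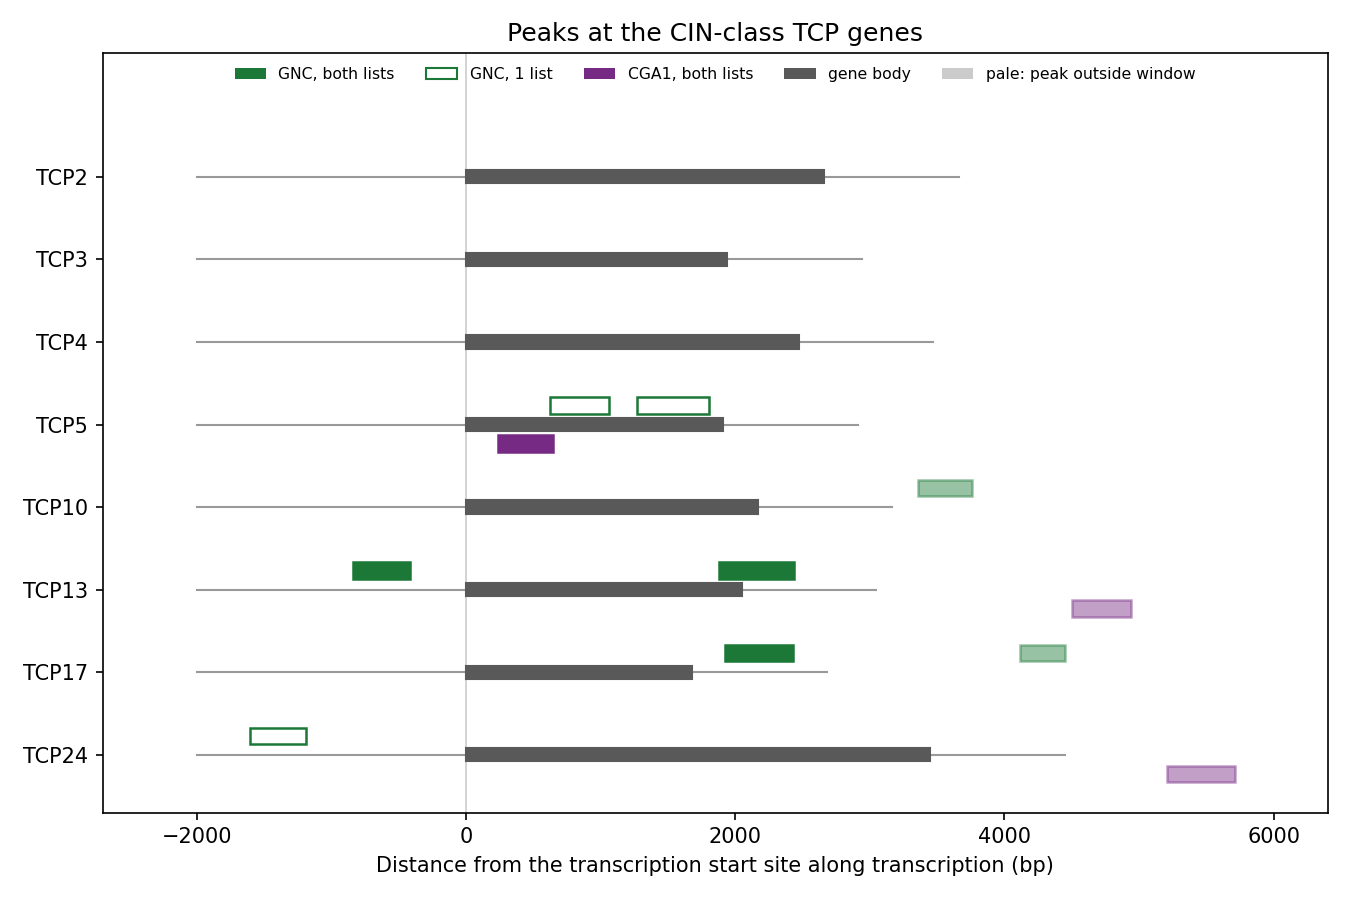
Peaks at the 8 genes, drawn by distance from the transcription start site in bp along transcription. GNC peaks stand above and CGA1 peaks below each gene; the grey line is the window, filled boxes are peaks in both lists, open boxes are peaks in 1 list, and pale boxes lie outside the window but near the gene. Within the windows, filled boxes occur at TCP5, TCP13 and TCP17.

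The counts of genes with a peak in both lists were close to those of genes in general. A GNC peak in both lists occurred in the window of 2 of the 8 genes (25%), against 22.9% of all protein-coding genes, and a CGA1 peak in both lists in 1 of the 8 (12.5%), against 9.94%. In single lists, GNC peaks occurred at 4 of the 8 in replicate 1, a larger share than the 27% of protein-coding genes there. In replicate 2 they occurred at 2 of the 8, where 26.9% of protein-coding genes had one. CGA1 peaks occurred at 1 of the 8 in each list, against 12.7% of protein-coding genes in replicate 1 and 12.3% in replicate 2. The share of CIN-class TCP genes with a peak in both lists is therefore no result about this group. The larger GNC share in replicate 1 rests on 1 list and 8 chosen genes and was not tested. What follows describes the individual peaks.

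The windows were of ordinary length. Those of the 8 genes were 4678 to 6446 bp long with a median of 5106 bp, against a median of 5078 bp for all protein-coding genes. Among the 12617 protein-coding genes with a window in that range, 24.1% had a GNC peak in both lists and 10.3% had a CGA1 peak in both. No CIN-class TCP gene had peaks of both factors in all 4 lists, a pattern found for 2.57% of protein-coding genes.

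The score of a peak is the MACS score, which is 10 times the negative log10 of the p-value for more reads in the IP than in the INPUT. The GNC lists held 5744 and 5721 nuclear peaks (replicates 1 and 2) with median scores of 65.3 and 65.6, and the CGA1 lists held 2456 and 2399 with medians of 62.9 and 62.5. The lowest score in every list was at or just above 50. Every one of the 4734 GNC peaks that overlapped between the lists had the same edges in both, and for 545 the score was equal as well. Among the CGA1 peaks that overlapped, 891 had the same edges, and for 240 the score was equal. The lists of a line were therefore not read as independent measurements, and no error was derived from the pair.

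TCP13 encodes a TCP factor active in leaf blades and was the only one of the 8 genes with 2 GNC peaks in both lists. Its upstream peak spanned 425 bp (chr3:389880-390304), lay wholly in front of the gene and was centred 628 bp before the transcription start site. The score was 75.02 in replicate 1 and 75.02 in replicate 2, above 66.4% and 67.1% of the peaks in those lists. The peak is thus 1 of the 545 with equal edges and score in both GNC lists, and the 2 scores are not read as independent. No other protein-coding gene had this peak in its window, and the nearest other gene was 1419 bp away.

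The downstream peak of TCP13 spanned 556 bp (chr3:392599-393154), with 169 bases in the 3′ UTR and 387 past the end of the gene. It had the highest score of all peaks at the 8 genes in the GNC list of replicate 1, 96.38, and scored 84.71 in replicate 2, above 87.3% and 78.5% of those lists. Its centre was 109.5 bp past the gene's end. The nearest transcription start was that of the neighbour AT3G02160, 1167.5 bp from the centre, and the peak lay in the window of that gene too. At least 2 GNC peaks in both lists were found for 2.86% of protein-coding genes, and TCP13 was 1 of these.

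TCP17 is a close relative of TCP5 and TCP13. Its single GNC peak spanned 506 bp (chr5:2586282-2586787) and scored 89.30 in replicate 1 and 80.50 in replicate 2, above 83.3% and 74.2% of the peaks in those lists. It began 246 bp past the end of the gene and was centred 499.5 bp past it. The nearest transcription start belonged to a tRNA gene, AT5G08075, at 1363.5 bp, and the peak also lay in the window of the protein-coding neighbour AT5G08080. For this gene the peak is thus called only through the downstream part of the window.

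Peaks behind a gene were not rare in these lists. Among all pairs of a protein-coding gene with a GNC peak of both lists in its window, the centre lay past the gene's end in 21.1% (n = 7071 pairs), upstream of the gene in 38.9% and within it in 40%. For CGA1 the shares were 20.6%, 40.4% and 39.1% (n = 2873 pairs). Of the 3 GNC peaks of both lists at CIN-class TCP genes, the centres of 2 lay downstream and 1 upstream.

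TCP5 was the only gene of the 8 with a CGA1 peak. The interval, 408 bp long (chr5:24536597-24537004), had the same edges in both lists and scored 67.75 in replicate 1 and 86.26 in replicate 2, above 60.6% and 84.8% of the peaks there. It was centred 443.5 bp downstream of the transcription start, in the intron, and covered 122 bases of 5′ UTR, 230 of intron and 56 of coding sequence. The nearest other gene was 4858 bp away.

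GNC peaks at TCP5 were present in the list of replicate 1 alone. The first spanned 534 bp (chr5:24535441-24535974), with 405 bases in the coding sequence and 129 in the 3′ UTR, and scored 69.00. The second spanned 437 bp (chr5:24536183-24536619), all of it coding sequence, and scored 51.29, above 5.38% of the list. The second shared 23 bp with the CGA1 peak, at the end of the coding piece printed for TCP5, and the first lay 622 bp from it. In the GNC list of replicate 2 the peak nearest to TCP5 was 4113 bp upstream of the gene, with a score of 50.07.

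TCP24, another leaf growth factor of the class, had 1 GNC peak in replicate 1 (chr1:10631819-10632233, 415 bp) and none in replicate 2. Its score was 53.65, above 15% of the list, and its centre was 1396 bp upstream of the transcription start. The neighbour AT1G30220 lay 486 bp from this peak and TCP24 itself 1188 bp. Peaks of low score were often found in 1 list alone. In the GNC list of replicate 1, 44.9% of peaks scoring from 50 up to 55 had no partner in replicate 2, against 10.8% of those from 65 up to 70 and 0% of those at 100 or more.

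**Figure D2:**
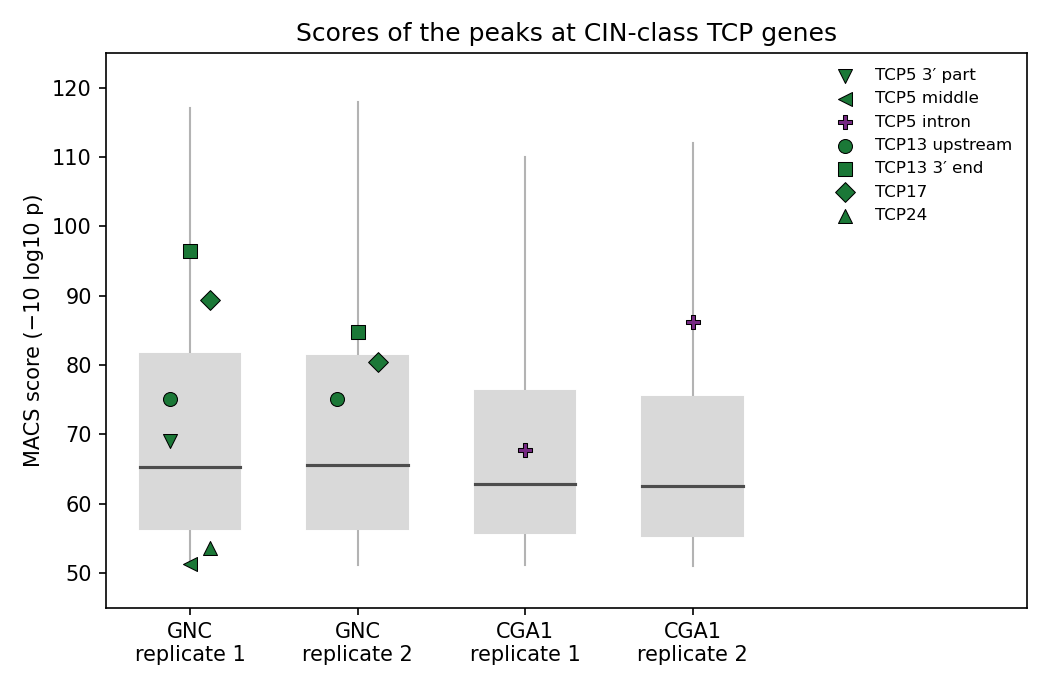
MACS scores (10 times the negative log10 of p) of the peaks at CIN-class TCP genes in the 4 lists. Symbols are single peaks, grey boxes span the 25th to the 75th percentile of all nuclear peaks of the list, the dark line is the median and the thin line runs from the 5th to the 95th percentile. The peaks at TCP13 and TCP17 stand above the median in both GNC lists, and the TCP24 peak and 1 TCP5 peak stand near the bottom of the replicate 1 list.

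At the other 4 genes the distance to the nearest peak differed. At TCP10 a GNC peak lay just outside the window, 1192 bp downstream of the gene (chr2:13218880-13219285), with scores of 56.81 in replicate 1 and 58.57 in replicate 2. At TCP3 the nearest GNC peak was 10873 bp downstream in both lists, scoring 77.38 and 56.69, and at TCP2 the nearest were 14784 and 13235 bp away. TCP4, the member most used to study leaf shape, stood farthest of the 8 from any GNC peak, with the nearest peaks at 38835 and 46201 bp.

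For CGA1 the nearest peak to TCP2 was 72720 bp away in replicate 1 and 72724 bp in replicate 2. The corresponding distances were 12104 and 12108 bp at TCP3, 18234 and 55346 bp at TCP4 and 13374 bp in both lists at TCP10. CGA1 peaks also lay outside the windows of genes with GNC peaks. The first was 1764 bp downstream of TCP24, in the neighbour AT1G30200, with scores of 72.13 and 74.96, and another was 2457 bp downstream of TCP13, in AT3G02160, with scores of 64.18 and 70.93. At TCP17 the nearest CGA1 peaks were 10651 and 10655 bp away.

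The 8 genes were also compared by the miR319 site, a feature that the choice of peaks did not use. The mature microRNAs are printed with bases 2 to 8, the seed, in capitals, and the best site of each targeted gene is printed with the bases that pair with miR319c in capitals. The RefSeq annotation places miR319a at chr4:12353109-12353129, miR319b, with the same sequence, at chr5:16660469-16660489 and miR319c at chr2:17029870-17029890.
miR319a: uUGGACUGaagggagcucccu
miR319c: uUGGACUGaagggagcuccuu
TCP2 site: cAGGgGgaCCCUUCAGUCCAA
TCP3 site: gAGGgGucCCCUUCAGUCCAu
TCP4 site: gAGGgGucCCCUUCAGUCCAg
TCP10 site: AAGGgGuaCCCUUCAGUCCAg
TCP24 site: uAGGgGgaCCCUUCAGUCCAA
In these 5 genes the best site had 4 or 5 mismatches in 21 bases, counting a G opposite a U as a mismatch, and lay in the coding sequence. The sites are at chr4:10163402-10163422, chr1:19850522-19850542, chr3:5063300-5063320, chr2:13221210-13221230 and chr1:10628989-10629009, in the order printed. All 5 held the run of 12 bases CCCUUCAGUCCA. A site with at most 5 mismatches was found in the transcripts of 89 of 27440 protein-coding genes, or 0.324%.

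TCP5, TCP13 and TCP17 had no such site. Their best matches had 8, 8 and 7 mismatches, a level that 49.9% (8 or fewer) and 13.8% (7 or fewer) of protein-coding genes reached. The 3 genes with a peak of GNC or CGA1 in both lists were these 3, and the 5 genes with a miR319 site had none in both lists. With 8 genes chosen by name this is a description of where the peaks fell, and it rests on peaks in both lists and on the window. Over all protein-coding genes, 22.9% had a GNC peak and 9.94% a CGA1 peak in both lists, and 2.57% had both. Among the 8 genes these shares were 25% and 12.5%, close to those of genes in general, and no gene had both. The split by miR319 site was not tested. TCP10, which has a site, had a GNC peak in both lists 1192 bp downstream, just outside the window. The TCP17 peak counts only through the downstream part of the window. With the centre from 1 kb upstream to 100 bp downstream of the transcription start, only TCP13 was left. With peaks in either list, TCP24, which has a site, joins the genes with a GNC peak.

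Words around the centre of each peak were counted in windows of 501 bp, 250 bp on each side, on both strands. A GATA word was present in all 7 windows, 3 to 6 times with a median of 6. A GATC word, which reads the same on both strands and is counted once, was present in all 7 windows, 1 to 5 times with a median of 2. Within the peak intervals themselves, a GATA word was present in all 7 and a GATC word in 6, with 0 in the TCP24 peak. These words are common everywhere. GATA was present in 98.3% and 98.4% of all windows of the GNC lists and in 98.5% and 98.2% of those of the CGA1 lists (replicates 1 and 2), and in 98% of promoters of the same length (400 bp upstream to 100 bp downstream of the start of 27443 protein-coding genes). GATC was present in 80% of the windows of each GNC list, 79.2% and 80.1% of the CGA1 windows and 71.8% of the promoters.

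Among the 7 windows, that of the CGA1 peak at TCP5 had the most GATC words, 5, more than 94.9% of the windows in its list. It also had 3 GATA words, more than 19.3%. The window of the upstream TCP13 peak had 6 GATA words and 1 GATC word, that of the downstream one 6 and 2, and that of the TCP17 peak 5 and 2. Within the peaks themselves GATA occurred 4, 9 and 5 times, in the same order, and 2 times in the CGA1 peak at TCP5. For GATA, 6 words were more than in 70.8% of the GNC windows. A longer form, a GATA word with A or T before it and A or G after it, was present in 5 of the 7 windows. It was absent from the windows of both GNC peaks of TCP5. The longer form was present in 77.4% and 77.2% of the GNC windows, 78.1% and 78.7% of the CGA1 windows and 78.1% of the promoters.

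**Figure D3:**
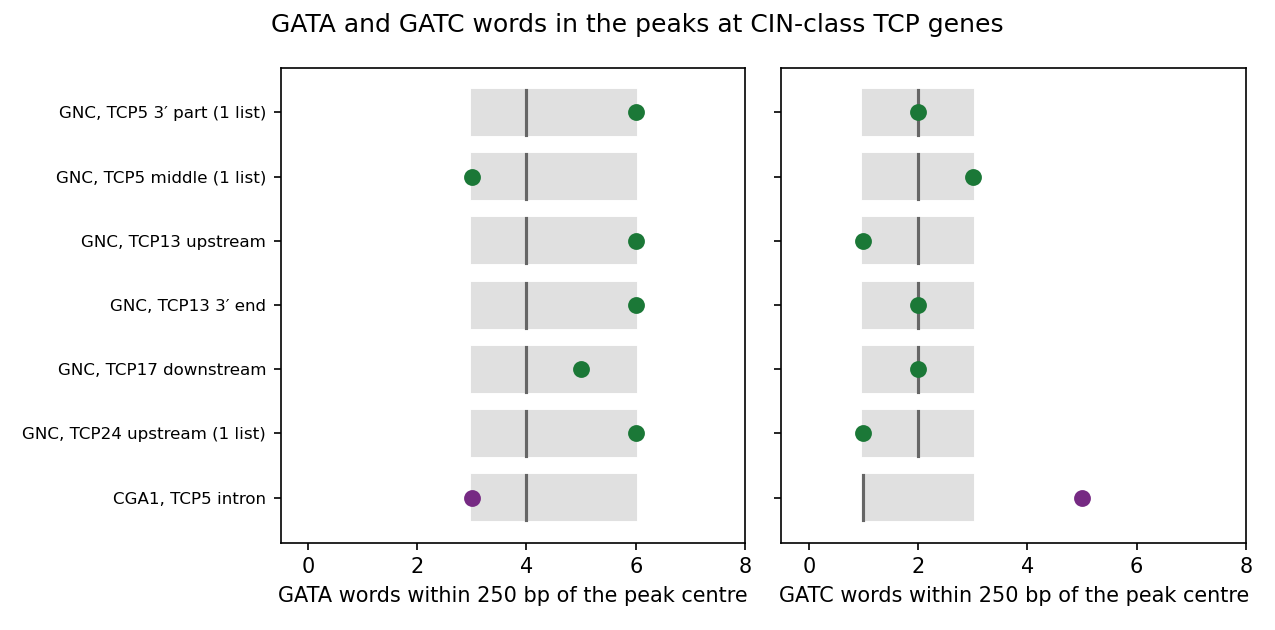
GATA words (left) and GATC words (right) within 250 bp of the centre of each interval at the CIN-class TCP genes, GNC above CGA1. Points are single intervals, grey boxes span the first to the third quartile of all peaks in the replicate 1 list of the line, and dark lines are the medians. The 5 GATC words of the TCP5 peak of CGA1 lie outside the box, and all other points lie within or at its edge.

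Words bound by TCP proteins themselves were looked for in the same windows. Neither the class II form GTGGNCCC nor the class I form GTGGGNCC was found in any of the 7 windows, which says only that these letters are not there. The class II form was present in 1.15% and 1.19% of the GNC windows, 1.14% and 1.17% of the CGA1 windows and 1.12% of the promoters. The class I form was present in 1.38% and 1.42%, 1.26% and 1.33%, and 1.71% of them. G and C made up 27.3% to 43.3% of the 7 windows, against a median of 36.1% in the GNC list of replicate 1 and 35.5% in the CGA1 list of replicate 1. The promoters had a median of 32.3%. The shares of words in windows and promoters were not adjusted for base content, and their differences were not tested.

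The other TCP genes offer the nearest comparison. Of the 3 CYC/TB1 genes, class II relatives that act in axillary buds and flowers, TCP1 and TCP18 had a GNC peak in both lists and TCP18 also a CGA1 peak. TCP18, also known as BRC1, which represses bud outgrowth, had a GNC peak scoring 146.98 and 130.33 and a CGA1 peak scoring 100.67 and 75.29, both centred in its coding sequence. The TCP1 peak scored 72.70 and 75.51. Both GNC scores at TCP18 exceeded the highest at a CIN-class gene, 96.38.

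Of the 13 class I TCP genes, which mostly favour cell proliferation, TCP8, TCP9 and TCP14 had a GNC peak in both lists and TCP20 and TCP23 a CGA1 peak, while 8 had no peak at all. Of protein-coding genes, 30.9% had a GNC peak and 15% a CGA1 peak in at least 1 list. The TCP9 peak scored 127.30 and 126.97 and that of TCP14 79.93 in both lists, each centred in the coding sequence. The TCP23 peak of CGA1, centred in the 5′ UTR, scored 130.37 and 166.40, and the CGA1 peak of TCP20 scored 81.54 and 53.50. The TCP8 peak scored 51.16 in both lists, near the lowest score present. TCP20 and TCP23 also had a GNC peak in replicate 1 alone, with scores of 50.94 and 53.65. Over the 24 TCP genes, 7 had a GNC peak in both lists, 4 a CGA1 peak and 1 both, against 22.9%, 9.94% and 2.57% of all protein-coding genes, so that these counts too lay near those of genes in general.

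The genes that act above and beside the CIN-class factors were examined next. Of the 3 miR319 genes, MIR319B had a GNC peak in both lists, with scores of 79.18 and 66.64 and its centre 1414 bp upstream, and the other 2 had no peak. Of 5 genes for partner proteins, AS1, a MYB factor of leaf polarity, had a GNC peak scoring 67.31 and 50.26, and TIE1, BRM, AS2 and SAP had no peak of either factor. A GNC peak in both lists occurred at 22.9% of protein-coding genes and 20.3% of all annotated nuclear genes. The counts in these short lists are no result about them.

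Among 11 genes known as targets of CIN-class TCPs, 2 had a GNC peak in both lists, 4 had a CGA1 peak in both and 7 had no peak, against 22.9% of protein-coding genes with a GNC peak and 9.94% with a CGA1 peak in both lists. The 11 include the microRNA genes MIR164A, MIR396A and MIR396B, which are not protein-coding. Of all annotated nuclear genes, 20.3% had a GNC peak and 8.69% a CGA1 peak in both lists. In at least 1 list, a GNC peak occurred at 30.9% and a CGA1 peak at 15% of protein-coding genes. LOX2, a lipoxygenase of jasmonate synthesis, had 3 CGA1 peaks, which scored 71.38, 74.16 and 72.07 in replicate 1 and 71.81, 55.98 and 72.57 in replicate 2, centred just upstream of the gene, in the coding sequence and in an intron. At least 3 CGA1 peaks in both lists were found at 8 protein-coding genes, 0.0292% of the total, a count made after the LOX2 peaks were seen. CUC3, a NAC factor of organ boundaries, had a CGA1 peak 439 bp upstream scoring 90.17 and 81.20.

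ARR16, a type-A cytokinin response regulator, and MIR396B, whose microRNA restrains the GRF growth factors, had peaks of both. At ARR16 the GNC peak upstream scored 66.98 and 70.99 and the CGA1 peak in the 3′ UTR scored 55.71 and 58.61. At MIR396B the GNC peak scored 93.68 in both lists and the CGA1 peak 85.68 and 70.14, both upstream. CUC1, CUC2, MIR164A, IAA3, YUC5, KRP1 and MIR396A had no peak. These lists are short and were chosen with results of the data known, so the counts are descriptions.

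**Figure D4:**
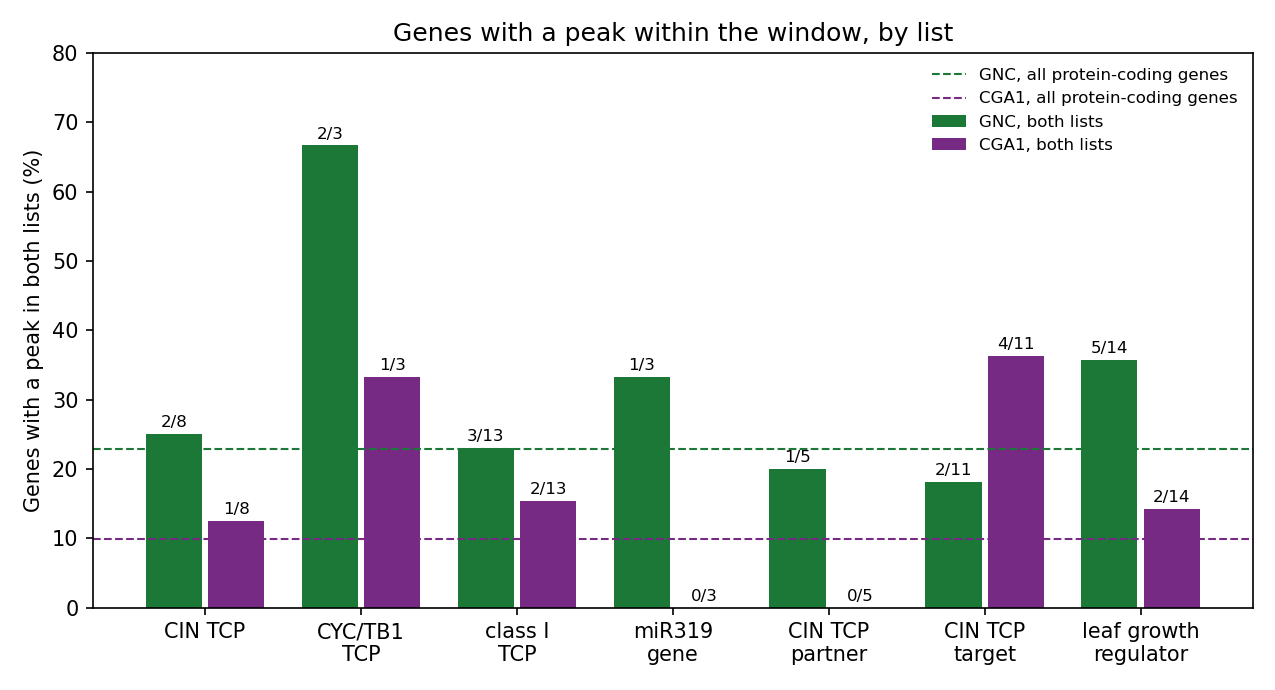
Percent of the genes of each list with a peak in both replicate lists, GNC left of CGA1 in each pair, with the number of genes with a peak over the number in the list. Dashed lines mark all protein-coding genes, 22.9% for GNC and 9.94% for CGA1; the CIN-class bars, 2 of 8 and 1 of 8, end close to their lines.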

How the data were processed

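Per the labels and the study's methods, IP and INPUT DNA of each replicate was sequenced, mapped to the TAIR10 genome with Bowtie2 2.2.6 with 1 mismatch allowed in the seed, reads mapping to several places were removed, and peaks were called with MACS 1.4 in each replicate. The deposited values are the MACS scores (10 times the negative log10 of the p-value) of the peak intervals that the authors called, with no read counts, so that the depth behind each peak is unknown and no test was made. No list holds a score under 50, so a weaker enrichment would not appear. The description field of the CGA1 INPUT samples names the GNC lists; the titles were followed.

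Here BED starts were turned to 1-based positions, 1 peak outside the nuclear chromosomes was left out of each GNC list, and a gene had a peak when at least 1 bp lay in its window; genes, microRNAs and sequences came from RefSeq TAIR10.1. Windows, overlaps and words were computed with Python 3.11.15 and numpy 2.4.6 and the overlap code was tested on simulated data. All 8 genes were named, and of the other lists those with a peak in both lists of a line, up to 6 a list by score, and neighbours nearer to a peak. The members and lists were chosen with earlier results of these data known. The alternatives tried are a score minimum, other overlaps, windows and gene assignments, and single lists. The labelled tissue could not be checked, since peak lists hold no expression values.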

Additional observations from a re-analysis of the deposited data

How the results depend on the processing

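No paired analysis was possible because the results come from no test. With a score of at least 100, 0 genes of the 8 had a peak of either factor (0 intervals each), against 2.61% of protein-coding genes for GNC and 0.762% for CGA1. With the centre from 1 kb upstream to 100 bp downstream of the transcription start, TCP13 was left for GNC (1 gene, 1 interval; 5.33% of protein-coding genes) and none for CGA1 (0 genes, 0 intervals; 2.25%). Without the part of the window behind the gene, 1 gene was left for GNC, TCP13, as the TCP17 peak lies behind its gene (19.3% of protein-coding genes for GNC, 8.37% for CGA1). A peak in either list gave 4 genes and 6 intervals for GNC, with TCP5 and TCP24 added (30.9% for GNC, 15% for CGA1). Leaving out each GNC list in turn gave 2 to 4 genes, 3 to 6 intervals and 26.9% to 27% of protein-coding genes; without replicate 2, whose list lacks the TCP5 and TCP24 peaks, the count was 4. For CGA1, 1 gene, 1 interval and 12.3% to 12.7% resulted. The other background shares for GNC and CGA1 were 21.5% and 9.26% by peak centre, 21.5% and 9.26% with at least 50% of the peak inside, 14.2% and 6.11% with each peak given to the nearest gene body, and 20.3% and 8.69% of all annotated nuclear genes. The counts of the 8 genes stayed as they were under the overlap and nearest-gene alternatives. Over the whole peak interval instead of 501 bp, the mean shares of the lists for GNC and CGA1 were 94.7% and 95.6% for GATA, 70.9% and 72.8% for GATC, 67.8% and 71.7% for the longer GATA form, 0.951% and 1.01% for the class II word and 1.14% and 1.01% for the class I word, as the intervals are mostly shorter.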

Other observations

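Beyond the TCP genes, 14 regulators of leaf growth were looked up. The GRF genes encode growth-regulating factors that promote cell proliferation, AN3 their coactivator, and the NGA genes B3 factors that limit blade growth. In both lists of a line, 5 of the 14 had a GNC peak and 2 a CGA1 peak, against 22.9% and 9.94% of all protein-coding genes. For 7 there was no peak in any list. A GNC peak in at least 1 list occurred at 30.9% of protein-coding genes, and a CGA1 peak at 15%. GRF3 had the highest scores, 116.82 and 155.35 for a GNC peak centred in the 5′ UTR and 104.26 and 100.19 for a CGA1 peak in an intron. GRF1 also had peaks of both, the GNC peak scoring 83.80 and 89.91 and the CGA1 peak 56.06 and 52.31. GRF8 had a GNC peak upstream scoring 91.53 and 100.02 and another in an intron scoring 67.28 and 67.78. The GNC peak of NGA1 scored 65.96 and 61.31 and that of NGA2 58.27 and 52.70. The list is short, was chosen with results of the data known and was not tested.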
